A study of Mus musculus with 16 samples.

Results

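The comparison concerns the loss of active secretory IgA (SIgA) transport in the colonic epithelium of untreated mice, chosen by the labels for offspring genotype and treatment. It uses 8 of the 16 arrays of the series: 4 arrays of Pigr-/- offspring, which lack active SIgA, against 4 arrays of Pigr+/- offspring. Every array carried RNA of colonic epithelial cells pooled from 3 gender-matched C57BL/6 mice aged 70 days, with 2 pools in each group of 6 mice, and RNA with an integrity number under 8.5 was not used. The Pigr+/- offspring are the controls here and carry 1 null allele themselves. There were 4 untreated groups. Mice with passive and active SIgA were Pigr+/- offspring of Pigr+/- dams, mice with passive SIgA only were Pigr-/- offspring of Pigr+/- dams, mice with active SIgA only were Pigr+/- offspring of Pigr-/- dams, and mice with neither were Pigr-/- offspring of Pigr-/- dams. The other 8 arrays came from the same genotypes given 2% dextran sulfate sodium (DSS) for 8 days, and serve here for the estimate of spread and for the comparison at the end.

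Pigr encodes the polymeric immunoglobulin receptor, which carries dimeric IgA made by plasma cells of the lamina propria through epithelial cells and releases it into the lumen with a part of the receptor attached. The SIgA so released coats bacteria and limits their contact with the epithelium. Before pups make their own, the IgA in milk, which is transported by the dam's receptor, serves in its place, so offspring and dam genotype set active and passive SIgA separately. Goblet cells, antimicrobial proteins and MHC class II presentation are other epithelial systems that respond to bacteria at this surface.

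Values are log2 intensities, and 19938 genes were tested. A difference is always the level without active SIgA minus the level with it, at matched passive SIgA: passive only minus passive and active gives the difference with passive SIgA, neither minus active only gives the difference without passive SIgA, and the main measure is the mean of both. Genes with an adjusted p below 0.05 are described as called (limma with Benjamini-Hochberg adjustment over all genes tested). The isolates held high levels of epithelial markers. Epcam, an epithelial adhesion molecule, lay between 12.35 and 12.66 on the untreated arrays, Krt8, a keratin of simple epithelia, between 14.17 and 14.29, and Muc2, the gel-forming mucin, between 13.72 and 14.07. In bulk samples such as these, fewer cells of a type and less RNA per cell cannot be told apart.

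Pigr itself was lower in every array of Pigr-/- offspring. Its level was 12.45 and 12.39 with passive and active SIgA, 11.61 and 11.43 with passive SIgA only, 12.34 and 12.18 with active SIgA only, and 11.68 and 11.70 with neither. The 4 arrays of each genotype did not overlap, so the labels and the targeted gene go together on all 8 arrays. The mean difference was -0.74 ± 0.07 (SE, limma adjusted p = 0.000286), and a high signal remained in Pigr-/- offspring. The sources used here do not give the position of the probes relative to the deleted part of the gene. The difference was -0.90 with passive SIgA (limma adjusted p = 0.000193) and -0.57 without it, where the same test gave an adjusted p of 0.411. After DSS it was -0.96 (limma adjusted p = 0.000147).

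Array levels of dim transcripts differed between the groups before any single gene was considered. Chemosensory receptor genes and genes of keratin-associated proteins, 1288 in all and dim in these samples, had mean levels of 5.25 and 5.41 in the mice with passive and active SIgA. The same mean was 4.87 and 4.64 with active SIgA only, 4.57 and 4.49 with passive SIgA only, 4.59 and 4.46 with neither, and 4.45 to 4.71 on the 8 DSS arrays. All 4 arrays with active SIgA lay above all 4 without it, and the 2 arrays of the group positive for both stood highest in the series. Together with the first pool of the active only group they also stood apart on the first principal component, at -33.5, -35.2 and -32.2 against -5.5 to 27.4 for the other arrays. The active only pools differed from each other more than any other pair did, with an SD of their gene-wise difference of 0.346 against 0.187 to 0.317 elsewhere.

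**Figure D1:**
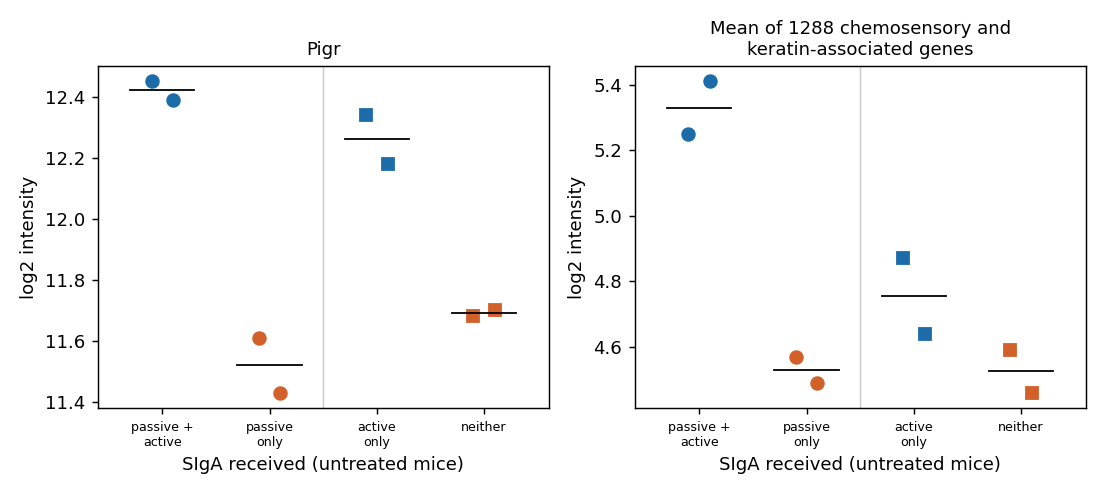
Left, Pigr, and right, the mean of 1288 chemosensory and keratin-associated genes, in log2 intensity on each of the 8 untreated arrays. Points are pools of 3 mice, blue with and orange without active SIgA, lines are group means, and the vertical line separates mice with passive SIgA from mice without it. Pigr lay at 12.18 or above with active SIgA and at 11.70 or below without it, while the dim set was highest, at 5.25 and 5.41, with passive and active SIgA.

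By the mean of both matched differences, 313 genes (1.57%) were higher and 1181 (5.92%) were lower without active SIgA. Of the lower ones, 719 belonged to the chemosensory and keratin-associated set, of which none was higher and whose median difference was -0.50 (in that set 0 genes were higher at an adjusted p under 0.05 by limma). Among the 9969 genes at or above the median level of 7.0, the picture was the opposite: 261 (2.62%) were higher and 21 (0.211%) were lower, with a median difference of 0.10 over all 9969. Below that level the median was -0.16. The higher share of all calls was 21.0%, against 11% when arrays were centred on their median and 24.7% after quantile normalization of the genes tested. After quantile normalization the median of the genes at or above the median level was 0.00, with 27 of them higher and 43 lower, so the upward shift of brighter genes depends on the scaling. Of the 282 called genes at or above the median level, 273 had the same sign in both matched differences, which choice by their mean favours, and 166 had 4 against 4 arrays that did not overlap. Over all genes, 819 (4.11%) were higher and 1239 (6.21%) lower without overlap.

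Fitted and tested by themselves, which changes both the prior variance and the adjustment, the 9969 genes at or above the median level gave 8 calls, 3 higher and 5 lower. The 3 higher ones were Retnlb, which encodes a secreted goblet cell protein, Spats2, and Pus7, a pseudouridine synthase. The 5 lower ones were Pigr, Nyx, a small leucine-rich proteoglycan of the retina, and 3 transcripts outside the rule for naming genes, Mir680-2, 1700054O19Rik and 4930431F12Rik, given here after their values were seen. With the level of dim transcripts as a covariate 0 genes were called, and leaving out single arrays gave between 476 calls (without the second pool with neither) and 4718 (without the second active only pool), with 480 without the second passive only pool, 901 without the first, 604 without the first active only pool and 633 without the second pool positive for both. The level of dim transcripts itself separated the untreated arrays with active SIgA from those without it. This covariate therefore cannot be cleanly told apart from active SIgA, and with it the targeted gene Pigr was not called either. A lost call or a change of sign with it does not decide between the 2. Calls named below are those of the test over all genes.

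Spats2 and Pus7, of these 8, did not overlap between the arrays with and without active SIgA and were higher without it. Spats2 lay at 7.12 and 6.9 with passive and active SIgA, 7.56 and 7.49 with passive only, 7.08 and 7.08 with active only, and 7.57 and 7.64 with neither. Its mean difference was 0.52 ± 0.09 (limma adjusted p = 0.00312), made of 0.52 and 0.53. All 4 arrays without active SIgA lay above all 4 with it. Pus7 was separated in the same way, with a mean difference of 0.46 ± 0.08 (limma adjusted p = 0.00465) and matched differences of 0.59 with and 0.33 without passive SIgA. Of the lower transcripts, Pigr, Nyx and 4930431F12Rik were also separated 4 against 4, while Mir680-2 and 1700054O19Rik overlapped. Nyx lay at 10.89 and 10.81 with passive and active SIgA and between 9.39 and 9.81 on the other 6 untreated arrays. Its difference was -1.39 with passive SIgA and -0.20 without it. Mir680-2 differed by -1.70 and -0.01, and 1700054O19Rik by -1.99 and 0.13, so that the group positive for both carried their mean differences. Of 4930431F12Rik the values were -0.84 and -0.14.

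**Figure D2:**
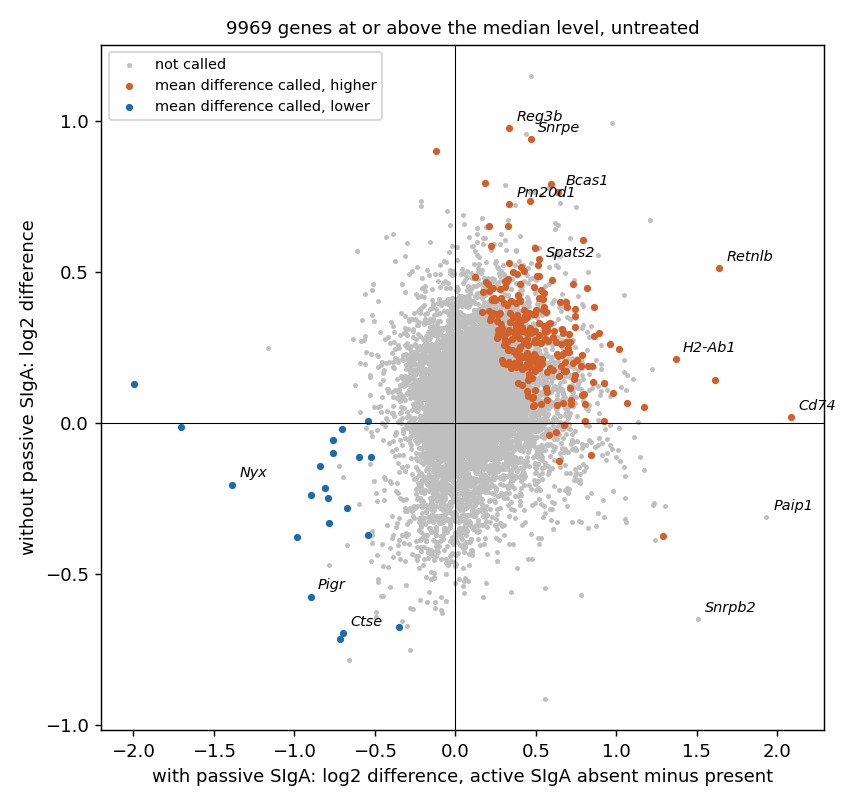
Each point is 1 of the 9969 genes at or above the median level, with the log2 difference, active SIgA absent minus present, in mice with passive SIgA on the horizontal axis and in mice without it on the vertical axis. Coloured genes were called by the mean of both (261 higher in orange, 21 lower in blue). Pigr, Ctse, Bcas1 and Spats2 lie at like values on both axes, whereas Cd74, at 2.09 and 0.02, and Nyx, at -1.39 and -0.20, lie along the horizontal one.

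Among antimicrobial and goblet cell genes, 4 were called by the mean of both, all higher without active SIgA, with Retnlb at the largest difference. Retnlb encodes RELM-beta, a secreted goblet cell protein that acts on bacteria. It lay at 8.65 and 8.94 with passive and active SIgA, 10.25 and 10.62 with passive only, 8.68 and 8.41 with active only, and 8.78 and 9.33 with neither. The passive only pools stood well above all others, while 1 pool with neither lay within the range of the pools with active SIgA. The mean difference was 1.08 ± 0.17 (limma adjusted p = 0.00258), with 1.64 with passive SIgA (limma adjusted p = 0.000853) and 0.51 without it (adjusted p = 0.414). The difference between these was not called (limma adjusted p = 0.158), and the dim-transcript covariate, which left 0.43 (limma adjusted p = 0.52), was the setting that ended the call of the mean.

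Reg3b, a bactericidal C-type lectin, was lowest with active SIgA only. Its level was 10.42 and 10.86 with passive and active SIgA, 10.80 and 11.14 with passive only, 9.76 and 9.84 with active only, and 10.67 and 10.88 with neither. The pools with active SIgA alone stood below the other 6, and the pools with passive SIgA overlapped. Its mean difference was 0.66 ± 0.17 (limma adjusted p = 0.0323), from 0.34 with and 0.98 without passive SIgA. The call was lost after quantile normalization (0.58, limma adjusted p = 0.0521) and when any of 5 single arrays was left out (limma adjusted p = 0.0506 to 0.14). The related lectin Reg3g had values of 0.44 and 0.96 and was not called (limma adjusted p of the mean 0.104). The transcript of Pla2g2a, a gene of the secreted phospholipases, lay between 6.61 and 6.76 on the arrays with active SIgA. On those without it the range was 6.91 to 7.31, with no overlap. This transcript was higher by 0.49 ± 0.11 (limma adjusted p = 0.0209), and the enzyme was not measured. Retnlb, Reg3b and Pla2g2a were the called members among 29 antimicrobial genes measured, all higher, beside 1.57% of all genes and 2.62% of brighter ones. At an unadjusted p under 0.05 by limma, 7 were higher and 4 lower. Without overlap between the arrays, 2 were higher and 3 lower, against 4.11% and 6.21% of all genes. Itln1, dim at a mean of 4.71, was among those 3, at -0.46, and was not called (limma adjusted p = 0.057). After quantile normalization 2 members were called, and 1 with only brighter genes tested. Of the 29, 14 (48.3%) were positive in both matched differences and 6 (20.7%) negative in both. The shares of genes at or above the median level were 53.5% and 10.2%. The list's median was 0.17, against -0.01 for all genes and 0.10 for those at or above the median level, and 0.12 after quantile normalization. With passive SIgA the called members were Retnlb, Nos2 (0.63), which makes nitric oxide, and Lyz1 (0.44), a lysozyme, all higher, and Reg1 (-0.72), which was lower.

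Of 22 goblet cell genes measured, 18 were positive in both matched differences and 0 were negative in both, against 31.5% and 35.0% of all genes and the shares just given for brighter ones. With the dim-transcript covariate these counts were 12 and 1. Retnlb and Bcas1 were the called members, beside 1.57% of all genes and 2.62% of brighter ones called higher. Bcas1, a goblet cell gene, lay at 8.41 and 8.26 with passive and active SIgA, 8.91 and 9.04 with passive only, 8.30 and 8.63 with active only, and 9.01 and 9.45 with neither. The groups did not overlap, and its mean difference was 0.70 ± 0.15 (limma adjusted p = 0.0129), from 0.64 and 0.77. With the dim-transcript covariate it was -0.31, a change of sign (limma adjusted p = 0.381). The transcription factors of the lineage gave values that did not pass: Atoh1, which commits cells to the secretory lineage, 0.35 (0.09 with and 0.62 without passive SIgA), Creb3l1 0.34, and Spdef, which drives goblet cell maturation, 0.13. The abundant products showed small values, with 0.10 for Muc2, 0.23 for the secreted protein Clca1, and 0.02 for the trefoil peptide Tff3. The list's median was 0.19, and 0.13 after quantile normalization, where 15 members (68.2%) were positive in both, against 26.9% of brighter genes. Its mean level lay between 9.95 and 10.07 on the arrays with active SIgA and between 10.21 and 10.34 on those without. The mean of all brighter genes was separated in the same direction, at 8.70 to 8.80 with active SIgA and 8.81 to 8.86 without it. Of 30 mucus glycosyltransferases, 0 were called by limma (7 were higher and 0 lower at an unadjusted p under 0.05), with 17 (56.7%) positive in both matched differences, near the share of brighter genes, and a median of 0.15. The median was 0.08 after quantile normalization and -0.13 with the covariate, where 5 were positive and 11 negative in both.

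**Figure D3:**
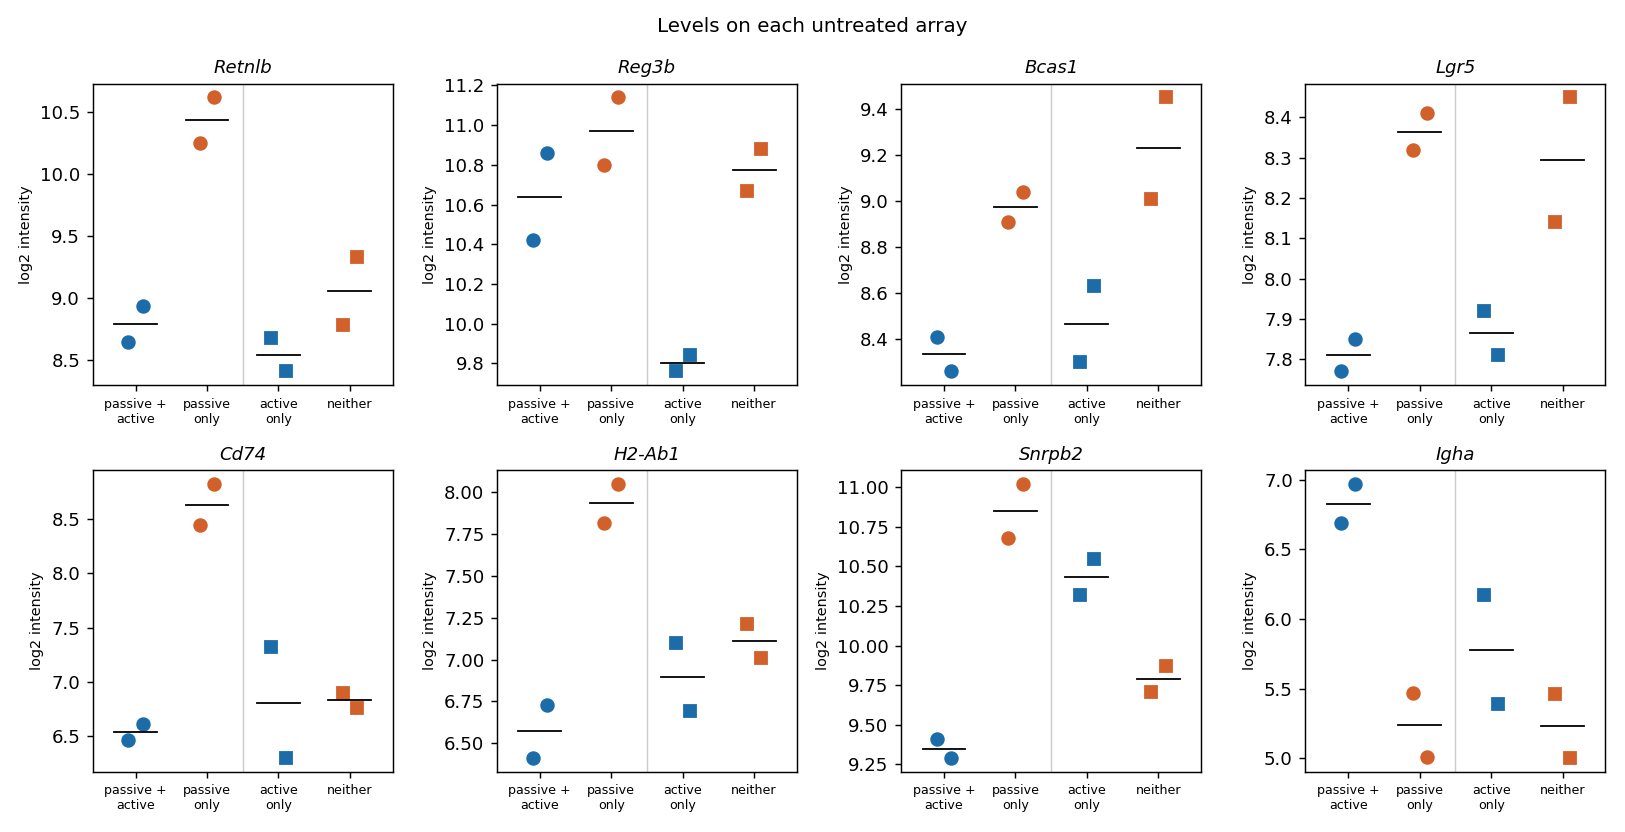
Log2 intensity of 8 genes on each of the 8 untreated arrays. Points are pools of 3 mice, blue with and orange without active SIgA, circles with and squares without passive SIgA, lines are group means, and axes do not start at 0. Bcas1, Lgr5 and Retnlb were higher without active SIgA in both matched pairs, without overlap within a pair. Retnlb and Cd74 were highest with passive SIgA only. Snrpb2 was highest there and next highest with active SIgA only, and Igha was highest with both.

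MHC class II genes, whose products present peptides to CD4+ T cells, were higher in the passive only group. Cd74, the invariant chain that guards the peptide groove, lay at 6.47 and 6.61 with passive and active SIgA, 8.44 and 8.82 with passive only, 7.32 and 6.30 with active only, and 6.9 and 6.76 with neither. The passive only pools stood above the other 6, which overlapped. Its difference was 2.09 ± 0.33 with passive SIgA (limma adjusted p = 0.00154) and 0.02 without it. H2-Ab1, a beta chain, lay at 6.41 and 6.73, 7.82 and 8.05, 7.10 and 6.69, and 7.21 and 7.01 in the same order of groups. It differed by 1.37 ± 0.22 with passive SIgA (limma adjusted p = 0.00161) and by 0.21 without it. H2-Aa, an alpha chain, differed by 1.23 and -0.26, H2-DMa, a subunit of the peptide exchanger, by 0.92 and 0.13, and H2-Eb1, another beta chain, by 0.52 and -0.09. With passive SIgA 5 of the 9 genes measured rose and 0 fell, beside 2.65% of all genes called higher and 6.13% called lower in that comparison. These are the 5 just named, and they were called there as well when only brighter genes were tested. With the dim-transcript covariate none of the 5 was called by limma (1.64 for Cd74, adjusted p = 0.231, and 1.04 for H2-Ab1, adjusted p = 0.251), and H2-Oa, which pairs with H2-Ob to regulate peptide exchange, was (1.73, limma adjusted p = 0.033).

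Without passive SIgA 0 of the 9 were called by limma, 0 also at an unadjusted p under 0.05, and their median was -0.09, against 0.52 with passive SIgA. The difference between the matched differences did not pass for these 5, with limma adjusted p values of 0.055 for Cd74, 0.105 for H2-Ab1, 0.101 for H2-Aa, 0.13 for H2-DMa and 0.175 for H2-Eb1. For Cd74 it passed with centred arrays (limma adjusted p = 0.0387) and after quantile normalization (limma adjusted p = 0.0294). By the mean of both, Cd74 (1.05), H2-Ab1 (0.79) and H2-DMa (0.53) were called. Cd74 lost this call when the second pool positive for both, the second passive only pool or the second pool with neither was left out (limma adjusted p = 0.0509, 0.0866 and 0.0621), and H2-Ab1 without the second passive only pool (limma adjusted p = 0.0536). Ciita, the transactivator of these genes, had a mean difference of 0.01, and Ctss, the protease that cleaves the invariant chain, 0.06. Macrophages and B cells carry MHC class II as a rule. The macrophage list averaged 6.15 and 6.18 with passive and active SIgA against 6.02 to 6.11 with passive only. The B cell list averaged 6.10 and 6.17 against 5.84 to 6.03. Both lists are mostly dim, with 4 of 24 and 2 of 21 genes at or above the median level. Their medians with passive SIgA, -0.11 and -0.17, were 0.04 and -0.02 after quantile normalization and 0.23 and 0.80 with the dim-transcript covariate. Ptprc, the common leukocyte antigen, lay at 6.51 and 6.48 with passive and active SIgA and at 6.76 and 6.79 with passive only. The part of leukocytes in the result was not tested.

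The promoters of MHC class II genes are known to share a module whose Y box holds an inverted CCAAT sequence. The 200 bases before the start site are shown for H2-Aa and H2-Eb1, as 2 class II genes that rose together with passive SIgA, with the letters CTGATTGG in capitals (RefSeq, GRCm38.p6, 5′ to 3′ on the gene's strand, H2-Aa at chr17:34287824-34288023 on the minus strand and H2-Eb1 at chr17:34305667-34305866 on the plus strand).
H2-Aa: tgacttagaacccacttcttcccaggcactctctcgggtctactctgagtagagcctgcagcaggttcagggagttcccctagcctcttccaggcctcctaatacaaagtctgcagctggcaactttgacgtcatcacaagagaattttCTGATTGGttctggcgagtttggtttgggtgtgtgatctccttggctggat
H2-Eb1: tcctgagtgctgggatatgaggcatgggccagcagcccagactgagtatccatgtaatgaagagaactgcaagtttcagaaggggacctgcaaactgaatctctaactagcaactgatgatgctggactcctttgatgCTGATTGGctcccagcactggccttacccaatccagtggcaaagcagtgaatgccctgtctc
The letters CTGATTGG, searched on both strands, begin at position -51 in H2-Aa and -62 in H2-Eb1, counted from the start site. They occur in 3 of the 7 promoters searched for 6 listed genes, the third being that of H2-Oa. The search of listed genes left out a chromosome. Cd74 and H2-Ab1, which had the largest differences, are not among the 6. The letters occur in 1164 of 32851 promoters of the same length (3.54%). Among the 6 genes searched, those with and without these letters did not divide by their values. H2-DMa, at 0.92, is without them and H2-Oa, at 0.32 with passive SIgA and not called, has them. Cd74 and H2-Ab1 do not enter this comparison.

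Of the crypt and transport lists, 5 genes were called higher and 1 lower by the mean of both. Lgr5, the marker of crypt base stem cells, lay at 7.77 and 7.85 with passive and active SIgA, 8.32 and 8.41 with passive only, 7.92 and 7.81 with active only, and 8.14 and 8.45 with neither. Arrays with and without active SIgA did not overlap, and the mean difference was 0.49 ± 0.12 (limma adjusted p = 0.0313). Smoc2, another stem cell marker, rose by 0.33 and Axin2, a feedback inhibitor of Wnt signalling that serves as its readout, by 0.41. Each of the 3 was separated 4 against 4. Olfm4, a stem cell marker of the small intestine that is dim in these samples at a mean of 5.71, fell by 0.42. In all 3 of 26 genes of the list were higher and 1 was lower, against 1.57% and 5.92% of all genes, and 16 (61.5%) were positive and 5 (19.2%) negative in both matched differences, against 53.5% and 10.2% of brighter genes. After quantile normalization 0 of the 26 were called by limma, 8 (30.8%) were positive in both, against 27.9% of all genes, and Lgr5 had a mean difference of 0.35 (adjusted p = 0.106).

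Over 31 ion and water transport genes, 2 were called, both higher: Scnn1b, a subunit of the epithelial sodium channel, at 0.47 ± 0.12 (limma adjusted p = 0.0333), and Kcne3, a potassium channel subunit that supports chloride secretion, at 0.32 ± 0.08 (limma adjusted p = 0.0374). The shares to set beside this count and those below are 1.57% of all genes and 2.62% of brighter ones called higher. Both genes were separated 4 against 4, as were 723 of the 9969 brighter genes in this direction. In both matched differences 22 of the 31 (71.0%) were positive, against 53.5% of brighter genes. After quantile normalization 11 (35.5%) were, against 26.9% of brighter genes, and the list's median went from 0.15 to 0.06. Among 37 absorptive colonocyte genes, Anpep, a brush border peptidase, rose by 0.43 and Tmigd1 by 0.36. Neither the transport nor the absorptive list kept a call after quantile normalization, in which 0 of each were called by limma. Gcg, which encodes glucagon-like peptides in enteroendocrine cells, rose by 0.43 ± 0.12 (limma adjusted p = 0.0468), the 1 of 25 enteroendocrine genes called. Its level was 9.43 and 9.52, 9.77 and 9.60, 9.09 and 8.68, and 9.59 and 9.49 in the order passive and active, passive only, active only and neither. Of 32 cell cycle genes 0 were called by limma in the mean of both. At an unadjusted p under 0.05 by that test, 7 were higher and 0 lower, beside 23.1% of brighter genes in either direction. In both matched differences 24 (75.0%) were positive, and 14 (43.8%) after quantile normalization, against 53.5% and 26.9% of brighter genes. The cell cycle median was 0.18, as it was after DSS (0.18).

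Lists of lymphocyte, myeloid and stromal genes had medians below 0, as dim genes did as a whole. After quantile normalization the medians of the T cell (0.05), macrophage (0.03), neutrophil (0.04) and neural (0.05) lists were above 0, and those of the fibroblast (-0.08), smooth muscle (-0.06) and endothelial (-0.07) lists below it. Igha, the constant region of IgA, lay at 6.69 and 6.97 with passive and active SIgA, 5.47 and 5.01 with passive only, 6.17 and 5.39 with active only, and 5.46 and 5.0 with neither. The group positive for both was highest, and 1 of the active only pools lay within the range of the pools without active SIgA. The mean difference was -1.07 ± 0.20 (limma adjusted p = 0.0085), and 0.32 with the dim-transcript covariate (limma adjusted p = 0.533), a change of sign. Jchain, the joining chain of dimeric IgA, lay between 4.41 and 5.12. Of 21 B cell and plasma cell genes, Igha, Cr2 (-0.41) and Ms4a1 (-0.29), both B cell surface proteins, were called, all lower, against 11.6% of all genes below the median level called lower. In both matched differences 14 of the 21 (66.7%) were negative, against 35.0% of all genes and 10.2% of brighter ones. The share among dim genes, which make up most of the list, was therefore above 35.0%, and the count does not set the list apart. After quantile normalization 7 (33.3%) were negative in both, against 27.5% of all genes. Only 2 of the 21 lay at or above the median level, and the list's median of -0.20 became -0.02 after quantile normalization, and 1 member, rather than 3, was called.

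Other calls in such lists were few. Adgre1, the macrophage F4/80 antigen, fell by 0.44, Ccr9, a gut-homing receptor, fell by 0.47, and Kcnmb1, a smooth muscle channel subunit, fell by 0.53, all at mean levels of 5.60 (Kcnmb1) or less. Ccl5, a chemokine of intraepithelial lymphocytes, rose by 0.40 (limma adjusted p = 0.0306). Its levels were 8.44 and 8.36, 8.72 and 8.73, 7.81 and 7.89, and 8.35 and 8.29 in the order used above, higher without active SIgA within each matched pair. Of neutrophil (20 genes), fibroblast (25), endothelial (19) and neural markers (15), 0 were called by limma in the mean of both, with medians of -0.13, -0.16, -0.18 and -0.13 against -0.16 for all genes below the median level. At an unadjusted p under 0.05, 1 fibroblast gene was higher and 2, 2, 3 and 2 genes of the 4 lists were lower. Among fatty acid genes Cyp4a10 (-0.75) and Cd36 (-0.33) were lower, both dim.

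Interferon-stimulated genes, pattern recognition, MHC class I, tight junctions, xenobiotic, sterol and glycolytic metabolism, oxidative phosphorylation, the unfolded protein response, wound repair, heat shock, immediate early genes, the circadian clock and tuft cells had 0 members called by limma in the mean of both. Of the 367 genes of these 14 lists, 37 were higher and 11 lower at an unadjusted p under 0.05 (13.1%, against 28.0% of all genes and 23.1% of brighter ones), and the medians ran from -0.05 to 0.15. The nearest to the threshold among the pattern recognition genes were Tlr3, a sensor of double-stranded RNA, at 0.40 (limma adjusted p = 0.0555), and Casp1, the inflammasome protease, at 0.52 (limma adjusted p = 0.0581). Xist, which is expressed from the inactive X chromosome of females, was higher on all 4 arrays without active SIgA (12.27 to 12.58) than on the 4 with it (11.36 to 12.25). It was not called (limma adjusted p = 0.0978). Of the 6 sex-linked genes measured, all but Xist Y-linked, 1 was separated 4 against 4 the other way, lower without active SIgA. The Y-linked Uty overlapped between the groups. At an unadjusted p under 0.05 by limma, 1 of the 6 was higher and 1 lower. The part of sex in the results was not tested.

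**Figure D4:**
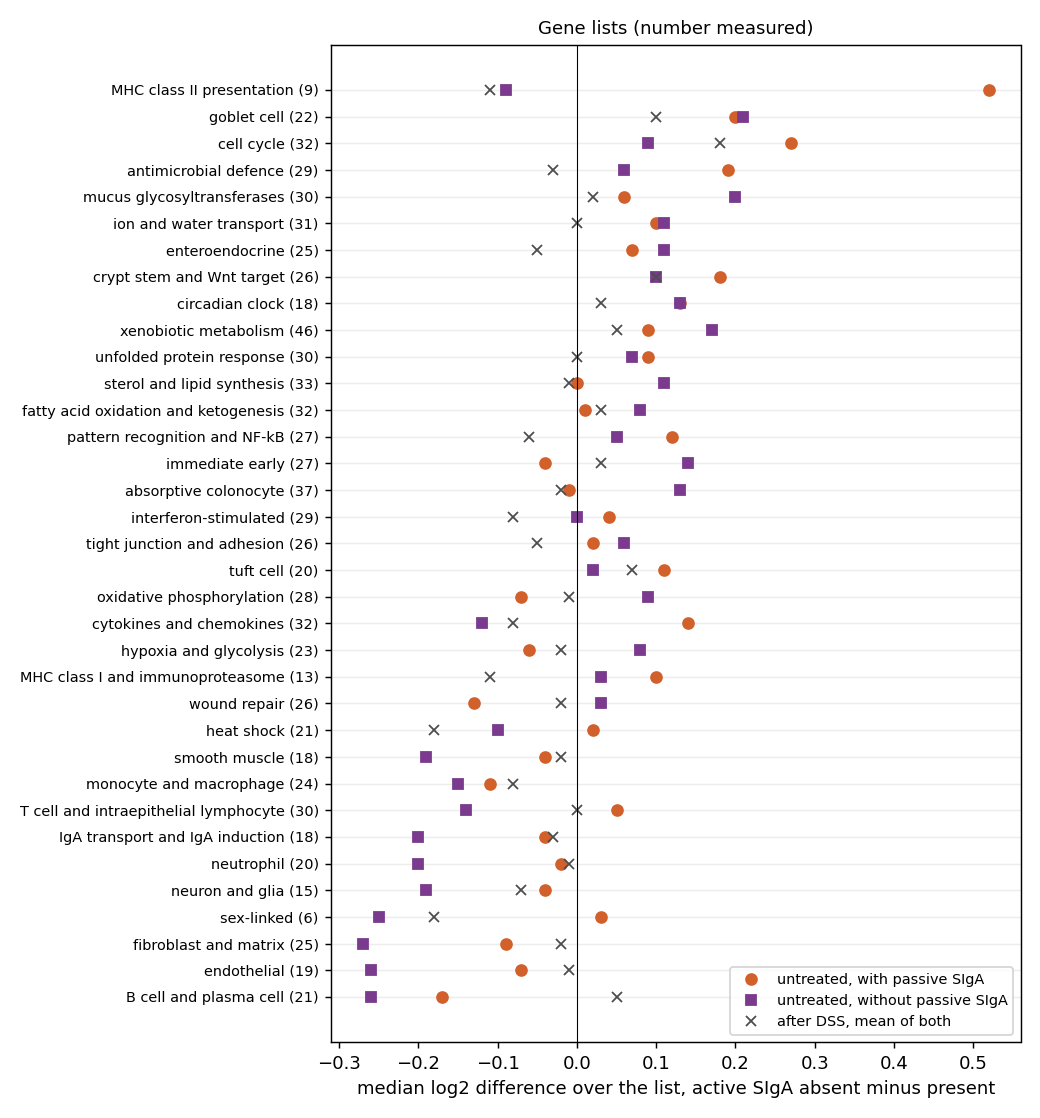
Median log2 difference, active SIgA absent minus present, over each of 35 gene lists, with the number of genes measured in brackets. Circles are untreated mice with passive SIgA, squares untreated mice without it, and crosses the mean of both after DSS. The MHC class II list stands at 0.52 with passive SIgA and at -0.09 without it, whereas the goblet cell list stands at 0.20 and 0.21.

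With passive SIgA alone considered, 528 genes (2.65%) were higher and 1222 (6.13%) lower, and among brighter genes 440 (4.41%) and 52 (0.522%). Tested by themselves, the brighter genes gave 369 calls. The higher share of all calls, 30.2%, was 10.4% with centred arrays and 41.4% after quantile normalization. Beside Cd74, Retnlb and the class II genes, 6 named genes had the highest differences. Paip1, which binds the poly(A)-binding protein and promotes translation, lay at 8.36 and 8.30 with passive and active SIgA, 10.14 and 10.40 with passive only, 9.15 and 9.83 with active only, and 9.0 and 9.36 with neither. It differed by 1.93 with passive SIgA (limma adjusted p = 0.00382) and by -0.31 without it. Snrpb2, a protein of the U2 spliceosomal particle, lay at 9.41 and 9.29, 10.68 and 11.02, 10.32 and 10.55, and 9.71 and 9.87. It differed by 1.51 (limma adjusted p = 0.000807) and -0.65. Dcun1d5 (1.31), Nudcd2 (1.24), the proteasome ATPase Psmc6 (1.23) and the centrosome protein Cep192 (1.22) rose with passive SIgA as well. Of these, Cep192 was positive without passive SIgA too, at 0.18.

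Without passive SIgA 0 genes (0%) were called by limma in either direction, with 2402 at an unadjusted p under 0.05. The active only pools, the controls here, were the pair that differed most, and 2 genes, Cd300ld and Olfr1051, were called, both lower, when the second of them was left out. The brighter genes with the smallest p that were separated in each matched pair are given as values, each at an adjusted p of 0.411 by limma. Pm20d1, an enzyme of N-acyl amino acid metabolism, had 0.73 and 0.34 with passive SIgA. Snrpe, a core spliceosomal protein, had 0.94, and its mean difference of 0.71 was called (limma adjusted p = 0.0147). Axin2 had 0.59, Nipsnap3b 0.65, Spats2 0.53, Rps15a, a ribosomal protein, 0.49, Arsb, a lysosomal sulfatase, 0.47, Flywch1 0.45, Fer1l6 0.45, and Dpyd, which breaks down pyrimidines, 0.44. On the lower side were Pigr, Krtap10-4 (-0.71), Ctse (-0.69), Cyp2d40 (-0.61), Phlda3 (-0.37), Gsc2 (-0.38), Tubb6 (-0.36), Mroh5 (-0.37), Cxcl1 (-0.57) and Sbpl (-0.39). Cxcl1, a chemokine that draws neutrophils, had levels of 9.18 and 9.16 with active only and 8.80 and 8.39 with neither. With passive SIgA its difference was -0.09.

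The difference between the matched differences was called for 229 genes (1.15%), of which 87.3% were more positive without passive SIgA, against 96.8% with centred arrays and 73.4% after quantile normalization. Centring moved the median of all genes in this measure from -0.054 to 0.091. Of the 229, 161 belonged to the chemosensory and keratin-associated set. Among brighter genes Nyx, Paip1 and Snrpb2 were called (limma adjusted p = 0.00446, 0.0477 and 0.00446), as were Mphosph6, Sfr1 and Lonrf3. The gene-wise correlation of both differences, which share no arrays, was 0.38 over all genes and 0.15 over those at or above the median level, as a description across genes that are not independent.

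Genes that lie near Pigr on chromosome 1 were examined as a group, since the null allele and its surroundings are inherited together. Of the 15 measured genes on each side, Ctse alone was called by the mean of both, 1 of 30, against 1.57% of all genes called higher and 5.92% called lower. Ctse, the aspartic protease cathepsin E and the 14th measured gene from Pigr, lay at 10.50 and 10.48 with passive and active SIgA, 9.70 and 9.89 with passive only, 9.74 and 9.76 with active only, and 8.75 and 9.37 with neither. Within each matched pair the arrays without active SIgA were lower, and arrays of mice without passive SIgA were lower than their counterparts. The mean difference was -0.70 ± 0.14 (limma adjusted p = 0.0113), with -0.70 and -0.69 in the matched pairs and -0.63 after DSS, which the test did not call. Pm20d1, 17 measured genes from Pigr and outside the range fixed for neighbours, showed 0.53 ± 0.11 (limma adjusted p = 0.0138) and 0.55 after DSS. Snrpe, 44 measured genes from Pigr and farther outside that range, showed 0.71 ± 0.15 (limma adjusted p = 0.0147) and 0.46 after DSS. The part of linkage in these values was not tested. The Fc receptor gene Fcamr and the IL-10 family genes Il10, Il19, Il20 and Il24, which lie next to or close to Pigr, were not called.

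**Figure D5:**
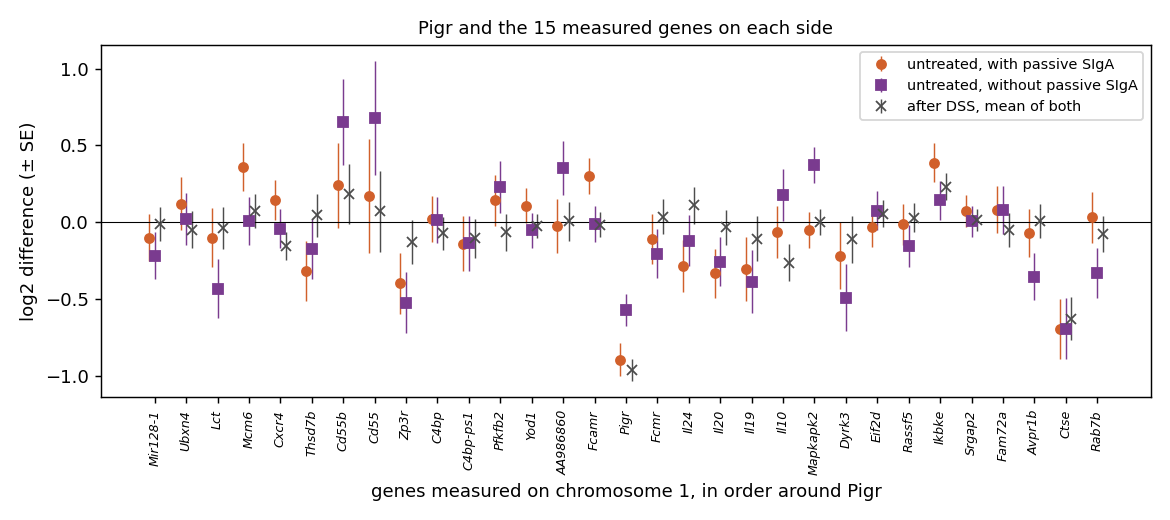
Log2 difference ± SE, active SIgA absent minus present, for Pigr and the 15 measured genes on each side in their order on chromosome 1. Circles are untreated mice with passive SIgA, squares untreated mice without it, and crosses the mean of both after DSS. Pigr and Ctse lie lowest in all 3, Ctse at -0.70, -0.69 and -0.63. Several other genes also lie below 0 in all 3, among them Zp3r (-0.40, -0.52 and -0.13) and Il19 (-0.31, -0.39 and -0.11).

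After DSS, the same mean difference was called for 1 gene (0.00502%), Pigr, lower. The untreated and the DSS differences were set against each other, and 168 genes (0.843%) differed, 145 of them chemosensory or keratin-associated. Retnlb, at 1.08 untreated, was at -0.04 after DSS, and the difference did not pass (limma adjusted p = 0.05, just above the threshold unrounded; 0.044 with centred arrays, where it passed). Cd74 was at -0.20 after DSS (limma adjusted p of the difference 0.114) and H2-Ab1 at -0.20 (limma adjusted p 0.0559, and 0.0425 with centred arrays and 0.0324 after quantile normalization, where it passed). Klb, a co-receptor of fibroblast growth factors, was at 0.17 untreated and -0.33 after DSS and was called (limma adjusted p = 0.0428). Of the 261 brighter genes called higher in untreated mice 194 (74.2%) were positive after DSS, against 57.3% of all brighter genes, and across all brighter genes the correlation of both differences, which share no arrays, was 0.21.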

How the data were processed

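The deposited values are log2 intensities of an Affymetrix whole-transcript array, made by the authors with RMA, as the submitters' processing notes state. Its version and the genome build are not given in the sources used here, and raw intensities were not analysed. The table held 35557 probe sets on 16 arrays, from 1.857 to 14.938. Of these, 21789 had 1 gene symbol in the platform annotation, 1621 several and 12147 none. Only the first kind was used, with the probe set of highest mean for the 999 genes with more than 1, which left 19938 genes. RefSeq (GRCm38.p6) gave current names for 21698 probe sets and the order of genes.

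With all 16 arrays in 1 fit, the 8 group means were estimated with limma 3.58.1 in R 4.3.3 (moderated, two-sided, with 8 residual degrees of freedom and 5.03 from the prior, Benjamini-Hochberg over all genes). The script was tested on simulated data. Arrays are pools of 3 mice, so p-values measure the spread between pools. Which pools share litters is not given in the labels, and dam genotype is shared within a litter. The number of arrays limits the precision: the median SE was 0.106 for the mean of both matched differences, 0.15 for each and 0.213 for the difference between them.

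Named genes were, among those at or above the median level, the 10 highest and 10 lowest called differences with 1 sign in both matched pairs (or, for 1 pair, arrays that did not overlap), filled by the smallest p where fewer were called. To these came up to 5 in each direction for the difference between them and for the comparison with DSS, up to 4 members of each of 35 lists, and Pigr with 15 measured neighbours on each side. Predicted genes, small RNAs and chemosensory receptors were left aside. Members, comparison and lists were chosen with earlier results of these data known. Epcam, Krt8 and Muc2 check the cell type. Named after their values were seen were Reg3g, Nos2, Lyz1, Reg1, Clca1, Tff3, Spdef, H2-Eb1, H2-Oa, Ciita, Ctss, Jchain, Ptprc, Pus7 and genes beside counts of a few. Alternatives covered the prior variance, array weights, a replicate block, scaling, filters, thresholds, the arrays fitted, a covariate and leaving out arrays.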

Additional observations from a re-analysis of the deposited data

Results flagged for a closer look

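The matched differences differed from each other, by the test of that difference (without minus with passive SIgA), for the genes named here by rule. Among brighter genes the differences were 1.18 for Nyx (-1.39 with and -0.20 without passive SIgA), -2.24 for Paip1, -2.16 for Snrpb2, -1.39 for Mphosph6, -1.37 for Sfr1 and -1.35 for Lonrf3 (0.78 with and -0.57 without passive SIgA). Among dim genes they were 2.69 for Zfp600, 1.82 for Prl3d3, 1.60 for Scgb2b2, 1.52 for Mup5 and 1.45 for Defb4. In each of these 5 the 2 arrays with passive and active SIgA were the highest of the 8.

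The untreated difference also differed from that after DSS, by the test of that difference, for Nyx (-0.80), Zfp600 (-1.53), Prl3d3 (-1.34), Scgb2b2 (-0.68), Mup5 (-0.82), Defb4 (-1.08), Cyp2c39 (-1.30), Skint11 (-1.15) and Klb (0.51). All but Nyx and Klb lay at mean levels of 4.55 (Cyp2c39) or less, and the level of dim transcripts moved with them. Its part in these values was not tested gene by gene.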

How the results depend on the processing

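Counts of called genes are given for the mean of both matched differences (1494), with passive SIgA (1750), the difference between them (229) and untreated against DSS (168). The cause of the changes was not tested except where fewer genes or arrays entered. A trend in the prior variance gave 105 for the last. No moderation gave 672, 1153, 77 and 18. Array weights gave 3344 with passive SIgA. Centring gave 524 and 308 for the last 2, and quantile normalization 635 for the mean and 492 and 79 for the last 2. Without the dimmest 30% of genes the counts were 19, 286, 10 and 5, and with only genes at or above the median level 8, 369, 6 and 2 (the last being Nyx and Mir680-2). All probe sets gave 2530, 3309, 1260 and 859. A fold of at least 1.5 gave 551 for the mean, and an adjusted p under 0.1 gave 2934, 2817, 452 and 311. With only the untreated arrays the mean gave 933 and the difference between them 114. The dim-transcript covariate gave 0, 980, 2791 and 0 (0 genes by limma) and -0.63 for Pigr (adjusted p = 0.125).

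Leaving out 1 array gave 476 to 4718 for the mean, 570 to 2252 with passive SIgA, 0 to 2 without it, 83 to 297 for the difference between them, 49 to 527 against DSS, and -0.78 to -0.69 for Pigr. Counts with passive SIgA moved by over 1.5 times without either pool positive for both (1117 and 642) or either passive only pool (978 and 570). In these fits the single array left in a group takes its spread from the remaining groups. The extremes for the last 2 came without the first pool with neither (83), the first pool positive for both (297), the second passive only pool (49) and the second active only pool (527). Without passive SIgA, 0 genes were called by limma under the other alternatives run, also without the untreated group positive for both, and without the 3 arrays at the end of the first component, which was chosen after seeing the data. A replicate block on the shared numbers gave 2326 for the mean. Deviations of same-numbered untreated pools correlated by 0.045 to 0.451 and the labels give separate pools, so the numbers were not taken as a pairing.

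The covariate reversed Snrpe (-0.24), Bcas1 (-0.31), Apol10a (-0.36), Usp1 (-0.57), Zfp953 (-0.16), Fastkd1 (-0.38), Krtap10-4 (0.02), Defb46 (0.28), Ifnz (0.14), Ifna5 (0.07) and Gpr31b (0.04). Of the list members named in the text, Igha (0.32), Cr2 (0.09), Adgre1 (0.03) and Nipsnap3b (-0.09, named without passive SIgA) also changed sign with it. Of the other single-gene values 537 kept side and direction, 161 were no longer called and 18 became called.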
